A study of Mus musculus with 15 samples.

Results

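The serine synthesis and ATF4 stress genes are 10 mouse genes chosen by name: the serine pathway enzymes Phgdh, Psat1 and Psph, the mitochondrial one-carbon enzymes Shmt2 and Mthfd2, the asparagine synthetase Asns, and the stress regulators and effectors Atf4, Ddit3, Chac1 and Trib3. They fill 11 of the 55359 gene entries of the deposited matrix, because Ddit3 has a second entry (ENSMUSG00000116429) that was at 0 in all samples and was left out. Transcripts were measured by poly-A RNA sequencing in 15 samples of 5 groups, 3 samples each. 46LCNEC_cell are 3 dishes (A, B and C) of 1 adherent line at passage 17, raised from a large cell neuroendocrine carcinoma that followed adenovirus Ad-CMVcre in the lungs of QKO mice. 57SCLC_cell are 3 flasks (A, B and C) of 1 line at passage 11 that grows as floating aggregates, raised from a small cell lung carcinoma that followed Ad-K5cre, in which Cre is driven by the keratin K5 promoter of basal airway cells. QKO mice carry Cre-deletable alleles, Rb1 and Trp53 among them, and are null for Rbl1. 46LCNEC_allo (tumors 312, 319 and 321) and 57SCLC_allo (tumors 275, 316 and 317) are the same lines grown under the skin of syngeneic immunocompetent QKO mice, so these tumors also hold host vessels, stroma and blood. Lung (CT3, CT4 and CT5) is normal lung of littermates of the hosts. Each tumor type is therefore represented by 1 line, and the dishes or flasks of a line are not independent tumors.

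Serine is built from the glycolytic intermediate 3-phosphoglycerate by PHGDH, PSAT1 and PSPH in turn, and SHMT2 and MTHFD2 then pass its side carbon into the mitochondrial folate cycle that supplies nucleotide synthesis. ATF4 is a transcription factor whose translation rises when eIF2 is phosphorylated by stress-sensing kinases. It is known to switch on these enzymes, ASNS and amino acid transporters, and under prolonged stress also DDIT3 (CHOP), CHAC1, which degrades glutathione, and the pseudokinase TRIB3, so an RNA level of Atf4 does not measure the protein's activity.

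ATF4 and C/EBP proteins bind a composite DNA element whose core was searched here as TGATGNAA, on both strands, from 250 bases before to 50 after each RefSeq start site (GRCm38.p6). The 10 genes have 11 windows, as Psat1 has 2. The element was found for 3 of the 10, Asns, Chac1 and Trib3, against 4.51% of all 27025 genes. They are shown because these 3 windows are the ones with a match, which is a description of the letters and not of binding. Capitals mark the match. For Asns and Chac1 the 250 bases before the start site are given, at chr6:7693210-7693459 on the minus strand and chr2:119350992-119351241 on the plus strand, and for Trib3 30 bases around a match that begins at base 15 after the start site, at chr2:152344028-152344057 on the minus strand.
Asns: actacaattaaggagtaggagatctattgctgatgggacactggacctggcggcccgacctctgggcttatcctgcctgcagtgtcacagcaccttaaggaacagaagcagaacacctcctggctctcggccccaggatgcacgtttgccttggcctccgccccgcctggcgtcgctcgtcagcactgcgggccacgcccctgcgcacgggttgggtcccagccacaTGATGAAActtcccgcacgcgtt
Chac1: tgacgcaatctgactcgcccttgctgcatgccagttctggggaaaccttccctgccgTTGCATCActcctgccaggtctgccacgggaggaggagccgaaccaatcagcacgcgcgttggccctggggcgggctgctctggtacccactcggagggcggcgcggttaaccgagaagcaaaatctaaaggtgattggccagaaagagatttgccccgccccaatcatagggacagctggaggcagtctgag
Trib3: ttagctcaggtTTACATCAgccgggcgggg
The E-box CACGTG was in none of the 10 genes' windows and in those of 8.09% of all genes.

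The samples held between 9480244 and 44876572 counted reads, the fewest in tumor 275. Flask C of 57SCLC_cell stood apart from flasks A and B, with 4.63% of its reads in the ribosomal entry Rn18s-rs5 against 1.08% and 1.15%, while flasks A and B were closer to each other than any other pair of replicates, though still apart beyond counting noise (mean chi-square of 2.80 per gene). The cultures of the lines carry different passages and, in the column names, different dates, which cannot be told apart from the line. Of the deleted genes, Rb1 measured 67 to 100 normalized counts in 46LCNEC_cell and 229 to 777 in 57SCLC_cell, against 247 to 329 in Lung, Trp53 1414 to 1548 and 923 to 1062 against 1250 to 1536, and Rbl1 1491 to 1701 and 2730 to 3166 against 750 to 872. These are totals over the whole gene, which also count exons outside a deletion and so do not check the genotype. The 5 neuroendocrine markers (Chga, Syp, Insm1, Scg3 and Calca) summed to 82357 to 89488 in 57SCLC_cell and 41262 to 51215 in 57SCLC_allo, but to 17.7 to 36.4 in 46LCNEC_cell and 13.7 to 47.6 in 46LCNEC_allo, below the 164 to 180 of Lung. The neuroendocrine label of the 46LCNEC samples is thus not borne out by these markers at the RNA level. The study rests the label on histology, protein staining and RNA comparisons. It reports NCAM, SSTR2 and CGRP in the cells, chromogranin A in LCNEC allografts, and CGRP or TTF-1 in subcutaneous tumors. From the RNA it reports that a human LCNEC and SCLC classifier separated the lines. It also reports enrichment of a signature of its mouse LCNEC tumors in the LCNEC allografts and cells. Those RNA comparisons were not repeated here. Protein was not measured here. Of the stained proteins, chromogranin A is encoded by Chga and alpha-CGRP by Calca, both among the 5 markers. In the 46LCNEC samples Chga had 1 to 14 reads and Calca 0 to 8. Ncam1 and Sstr2 are not among the 5 markers.

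Most of the 10 genes were higher in the tumor groups than in normal lung. Ddit3 was called in no group, Atf4 in neither allograft group and Psph not in 57SCLC_allo. Against Lung, 9 of the 10 were called higher in 46LCNEC_cell, 9 in 57SCLC_cell, 8 in 46LCNEC_allo and 7 in 57SCLC_allo, and none was called lower. To be called, a gene had to change at least 2-fold with a limma p, adjusted after Benjamini and Hochberg over all genes tested, no higher than 0.01, on log2(normalized count + 1). By that rule 20.6%, 21.1%, 13.4% and 18.9% of all genes tested were higher in the same 4 comparisons, 35%, 32.7%, 22.1% and 26.9% were lower, and 55.6%, 53.8%, 35.6% and 45.8% were called in either direction. The median log2 fold change of the 10 genes was 2.86, 2.63, 2.10 and 2.51, beside -0.23, -0.12, -0.14 and -0.09 over all genes. All 4 comparisons use the same 3 Lung samples. In tumors and lung, which hold many cell types, fewer cells of a type and less RNA per cell cannot be told apart.

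**Figure D1:**
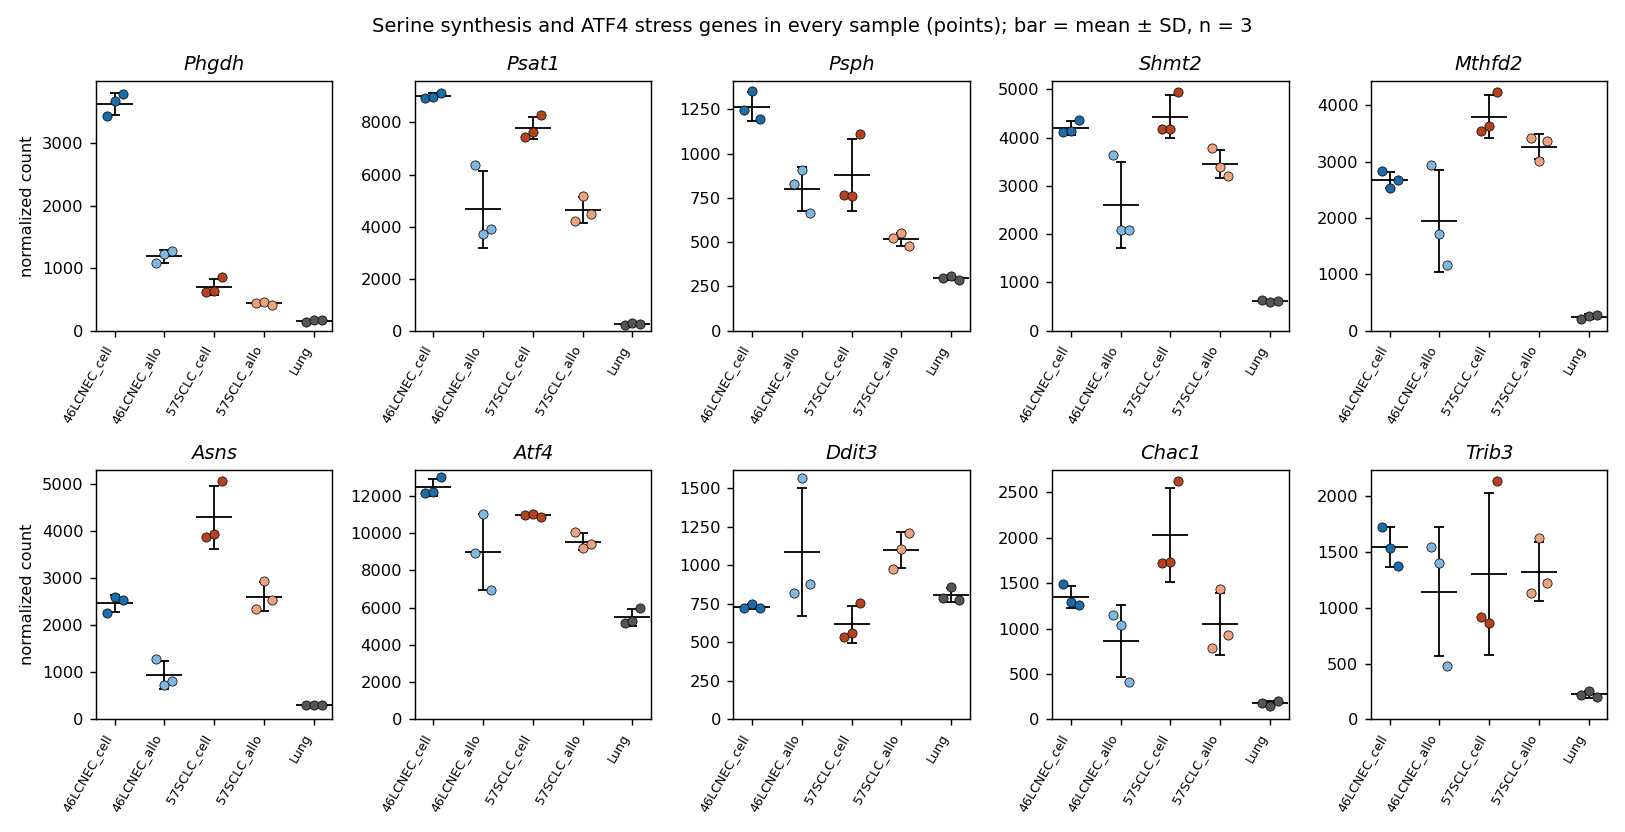
Normalized counts (y axis, linear, from 0) of the 10 genes in the 3 samples of each group (points), with the mean and SD as bars. Psat1 lies between 3724 and 9145 in the tumor samples and between 237 and 279 in Lung, while Ddit3 shows no such gap.

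Phgdh, the first and committing enzyme of serine synthesis (ENSMUSG00000053398, chromosome 3, 98220484 to 98255047, GRCm39), had the widest difference between the cultured lines of the 10 genes. It measured 3434, 3681 and 3780 normalized counts in 46LCNEC_cell dishes A, B and C, and 624, 630 and 855 in 57SCLC_cell flasks A, B and C. In the allografts it measured 1078, 1220 and 1277 in 46LCNEC_allo and 443, 454 and 415 in 57SCLC_allo, and in Lung 140, 171 and 166. All 5 groups were separate, in the order 46LCNEC_cell, 46LCNEC_allo, 57SCLC_cell, 57SCLC_allo and Lung. The cultures differed by -2.38 ± 0.13 on the log2 scale (57SCLC_cell minus 46LCNEC_cell, SE, limma adjusted p = 9.21e-07), and the allografts by -1.44 ± 0.12 (adjusted p = 0.000103). Within 46LCNEC, Phgdh fell by 1.61 ± 0.10 on the log2 scale from culture to allograft (limma adjusted p = 3.56e-05). Within 57SCLC the difference of -0.67 ± 0.14 was below 2-fold (limma adjusted p = 0.00631), and the gap between the lines narrowed from -2.38 in culture to -1.44 in allografts, a change of 0.94 ± 0.18 that was also short of 2-fold (limma adjusted p = 0.00155). Without flask C, whose Phgdh was the highest of the flasks, that interaction value was 1.09 with an adjusted p of 0.000146 and was called. Phgdh has 21 other annotated genes whose transcripts match it at 90% identity or more over at least 400 bases, mostly processed pseudogenes, and these held 1.43% as many reads as Phgdh itself. How reads that fit several places were handled is not given in the sources used here, so the level of Phgdh could be understated in every sample.

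Psat1, the aminotransferase of the second step (ENSMUSG00000024640, chromosome 19, 15882039 to 15924701), showed the largest rise over lung. It measured 8926, 8987 and 9145 normalized counts in 46LCNEC_cell and 7447, 7640 and 8268 in 57SCLC_cell, against 237, 279 and 242 in Lung. In allografts it measured 6371, 3724 and 3895 in 46LCNEC_allo tumors 312, 319 and 321, and 4208, 5175 and 4472 in 57SCLC_allo. Tumor 312 was above the other two of its group, and the allograft groups overlapped. Against Lung, Psat1 rose by 5.15 ± 0.08 on the log2 scale in 46LCNEC_cell, a 35.6-fold difference (limma adjusted p = 2.16e-10). The rise was 4.94 ± 0.09 in 57SCLC_cell, 4.18 ± 0.11 in 57SCLC_allo and 4.16 ± 0.22 in 46LCNEC_allo (limma adjusted p = 9.73e-09, 6.89e-08 and 2.06e-05). Between the lines it differed by -0.21 ± 0.07 in culture and 0.03 ± 0.22 in allografts, neither called. From 46LCNEC culture to allograft Psat1 changed by -0.996 ± 0.20 (limma adjusted p = 0.00536), just inside 2-fold and not called. It was called with TMM scaling at -1.01 and with library-size scaling at -1.05 (limma adjusted p = 0.0048 and 0.00276), and at -1.24 when tumor 312 was left out. A transcribed pseudogene, Gm12611, matches Psat1 closely and held 7262 reads over all samples beside 93765 for Psat1.

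Psph, the phosphatase that releases serine (ENSMUSG00000029446, chromosome 5, 129841925 to 129864513), had a smaller range. The cultures held 1195 to 1356 normalized counts of it in 46LCNEC_cell and 762 to 1111 in 57SCLC_cell, the allografts 665 to 907 in 46LCNEC_allo and 478 to 552 in 57SCLC_allo, and Lung 286 to 311. Ranked by mean, only 57SCLC_cell and 46LCNEC_allo, which are neighbours, overlapped. Psph rose over Lung by 2.08 ± 0.09 on the log2 scale in 46LCNEC_cell, 1.54 ± 0.16 in 57SCLC_cell and 1.41 ± 0.15 in 46LCNEC_allo (limma adjusted p = 4.3e-08, 4.88e-05 and 0.000318). In 57SCLC_allo the value of 0.79 ± 0.11 was under 2-fold and not called (limma adjusted p = 0.000323). Between the lines it differed by -0.55 ± 0.15 in culture and -0.62 ± 0.15 in allografts, with no call. Psph shares 465 exon bases with Cct6a on the opposite strand, and whether the counting used strand is not given in the sources used here.

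The mitochondrial enzymes Shmt2, which splits serine into glycine and a one-carbon unit (ENSMUSG00000025403, chromosome 10, 127352266 to 127358323), and Mthfd2, which oxidizes that unit (ENSMUSG00000005667, chromosome 6, 83282673 to 83302890), were called against Lung in all 4 tumor groups and between the lines in neither setting. Shmt2 measured 4104 to 4371 normalized counts in 46LCNEC_cell and 4166 to 4951 in 57SCLC_cell, which overlapped, and 588 to 644 in Lung. In 46LCNEC_allo it measured 3636 in tumor 312 but 2084 and 2092 in tumors 319 and 321, and in 57SCLC_allo 3194 to 3773. It rose over Lung by 2.03 ± 0.23 to 2.84 ± 0.09 on the log2 scale in the 4 comparisons, all called. Mthfd2 measured 2533 to 2827 in 46LCNEC_cell and 3545 to 4229 in 57SCLC_cell, 3017 to 3416 in 57SCLC_allo and 200 to 277 in Lung. The 46LCNEC_allo tumors spread from 1166 in tumor 321 through 1716 in tumor 319 to 2935 in tumor 312, a range that covered the cultured dishes. Mthfd2 rose over Lung by 2.87 ± 0.34 in 46LCNEC_allo to 3.94 ± 0.14 in 57SCLC_cell, all called. Between the lines, its difference of 0.50 ± 0.09 in culture was under 2-fold and not called (limma adjusted p = 0.0011). The 0.86 ± 0.31 in allografts was not called either (adjusted p = 0.0532), but without tumor 312 it was 1.2 and called (adjusted p = 0.00367). Shmt2 shares 727 exon bases with Ndufa4l2 on the opposite strand, which held 5759 reads beside 53256 for Shmt2.

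Asns, which makes asparagine from aspartate and glutamine (ENSMUSG00000029752, chromosome 6, 7671667 to 7728461), ran opposite to Phgdh between the lines. It measured 2260, 2600 and 2542 normalized counts in 46LCNEC_cell and 3869, 3946 and 5068 in 57SCLC_cell. In allografts it measured 1293, 740 and 824 in 46LCNEC_allo and 2351, 2943 and 2534 in 57SCLC_allo, and in Lung 315, 312 and 307. 57SCLC was above 46LCNEC in both settings with no overlap, and 57SCLC_allo overlapped with 46LCNEC_cell. In allografts the lines differed by 1.49 ± 0.22 on the log2 scale (57SCLC_allo minus 46LCNEC_allo, limma adjusted p = 0.00136). In culture the difference of 0.79 ± 0.12 was under 2-fold and not called (limma adjusted p = 0.000396). Scaling by library size alone, which moved the median of all genes in that comparison to 0.23, raised it to 1.02 and a call. From culture to allograft Asns fell by 1.41 ± 0.21 on the log2 scale in 46LCNEC (limma adjusted p = 0.0013) and changed by -0.71 ± 0.13 in 57SCLC, not called (adjusted p = 0.00308). The difference between these changes was 0.70 ± 0.26 with an adjusted p of 0.055, so the lines were not shown to differ in it. Against Lung, Asns rose by 1.57 ± 0.22 in 46LCNEC_allo to 3.77 ± 0.11 in 57SCLC_cell, all called.

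**Figure D2:**
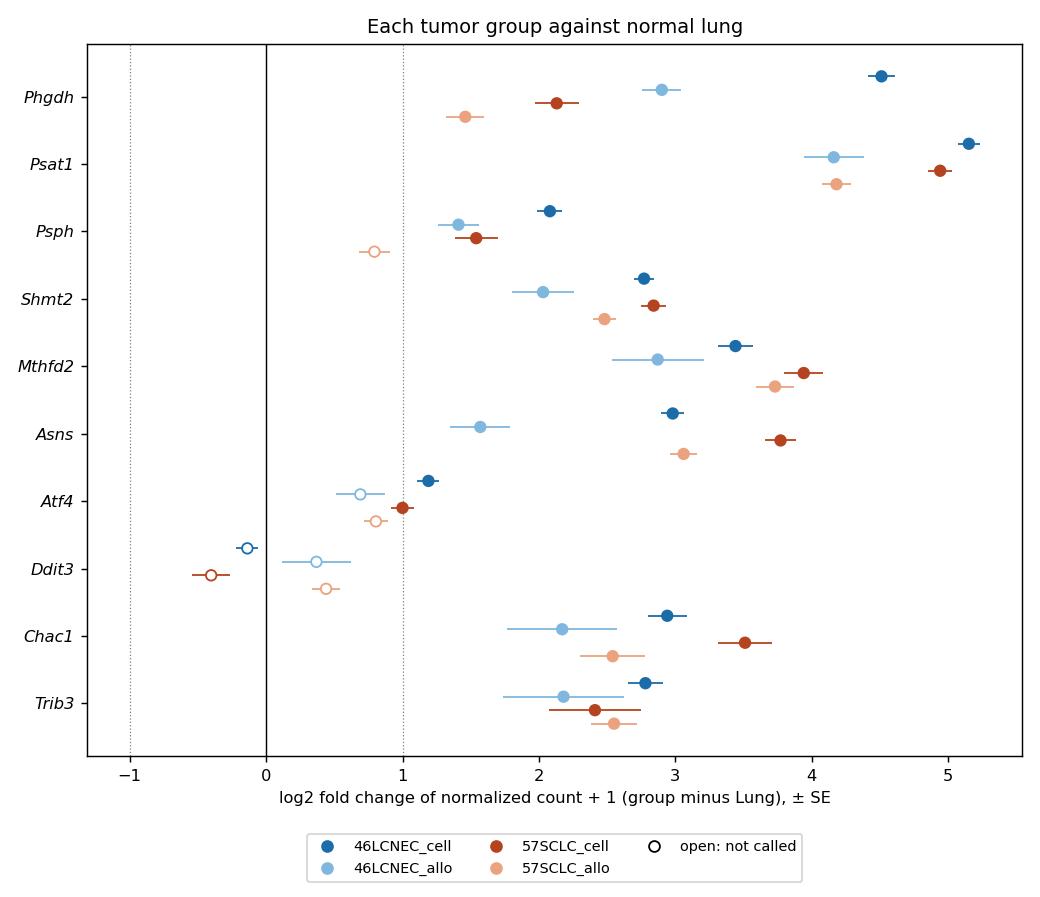
The log2 fold change ± SE of each gene in the 4 tumor groups against Lung (x axis), with filled points for called genes and dotted lines at 2-fold. Psat1 lies farthest right at 4.16 to 5.15, and Ddit3 lies between -0.40 and 0.44 with no call.

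Atf4 itself (ENSMUSG00000042406, chromosome 15, 80139372 to 80141745) was called between no pair of tumor groups compared. It measured 12129, 12220 and 13002 normalized counts in 46LCNEC_cell and 10946, 11048 and 10865 in 57SCLC_cell. It measured 8952, 11021 and 6945 in 46LCNEC_allo, 10066, 9180 and 9402 in 57SCLC_allo, and 5160, 5267 and 5995 in Lung. All tumor samples were above all Lung samples. Atf4 rose over Lung by 1.19 ± 0.08 on the log2 scale in 46LCNEC_cell (limma adjusted p = 7.89e-07). In 57SCLC_cell it rose by 1.00 ± 0.08 (limma adjusted p = 1.12e-05), at the edge of the call, which was lost when flask B, CT3 or CT4 was left out (0.96 to 1.00). In 57SCLC_allo and 46LCNEC_allo the values of 0.80 ± 0.09 and 0.69 ± 0.18 were not called (limma adjusted p = 6.53e-05 and 0.0142). With library-size scaling the value in 57SCLC_allo was 1.01 and called (limma adjusted p = 1.57e-05). Scaled for exon length (reads divided by annotated exon length and scaled to the same sum in every sample, as in TPM), Atf4 was the highest of the 10 genes in every group, at 742 ± 16.8 (SD, n = 3) in 46LCNEC_cell and 328 ± 19.6 in Lung. On the same scale Psat1 came next in 46LCNEC_cell at 217 ± 6.42, and Psph and Ddit3 were near the bottom there at 24.4 ± 1.96 and 18.6 ± 0.75. The length is that of all annotated exons of a gene together. It is 2374 bases for Atf4, 7352 for Psph and 5579 for Ddit3, with 3576 of those of Ddit3 shared with Mars1. An expressed transcript can be shorter, so the order also reflects these lengths.

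Ddit3, the pro-apoptotic factor CHOP (ENSMUSG00000025408, chromosome 10, 127124268 to 127132163), was the 1 gene not called against Lung in any group. It measured 723, 750 and 726 normalized counts in 46LCNEC_cell, 534, 563 and 754 in 57SCLC_cell, and 786, 860 and 775 in Lung. In allografts it measured 821, 1568 and 877 in 46LCNEC_allo and 977, 1108 and 1210 in 57SCLC_allo. Cultures of both lines were below Lung, and 57SCLC_allo was above it. The differences from Lung were -0.14 ± 0.08 and -0.40 ± 0.14 on the log2 scale in the 46LCNEC and 57SCLC cultures, and 0.37 ± 0.25 and 0.44 ± 0.10 in their allografts, none called (limma adjusted p = 0.145, 0.0295, 0.236 and 0.00497). From culture to allograft Ddit3 changed by 0.84 ± 0.15 in 57SCLC and 0.51 ± 0.24 in 46LCNEC, where the others of the 10 genes except Trib3 in 57SCLC were at or below 0, and neither was called (limma adjusted p = 0.00263 and 0.115). The high value of 46LCNEC_allo was that of tumor 319. Ddit3 shares 3576 exon bases with Mars1 on the opposite strand, the methionyl-tRNA synthetase, which measured 1938 ± 55.4 (SD, n = 3) in 46LCNEC_cell and 623 ± 70.6 in Lung. Without known strand handling the reads of this pair cannot be told apart.

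Chac1, which breaks down glutathione (ENSMUSG00000027313, chromosome 2, 119180757 to 119184866), and Trib3, a pseudokinase that dampens AKT and ATF4 (ENSMUSG00000032715, chromosome 2, 152179337 to 152191958), varied widely among replicates. Chac1 measured 1484, 1292 and 1261 normalized counts in 46LCNEC_cell, 1725, 1732 and 2622 in 57SCLC_cell, and 178, 144 and 206 in Lung. It measured 1144, 1034 and 415 in 46LCNEC_allo and 790, 1435 and 927 in 57SCLC_allo. The low value was tumor 321 and the high value flask C. Trib3 measured 1723, 1534 and 1368 in 46LCNEC_cell, 912, 860 and 2137 in 57SCLC_cell, and 218, 257 and 198 in Lung. It measured 1547, 1399 and 480 in 46LCNEC_allo and 1127, 1624 and 1218 in 57SCLC_allo. All 4 tumor groups overlapped with their neighbours in the order of Trib3 means, and all were above Lung. Over Lung, Chac1 rose by 2.94 ± 0.14 on the log2 scale in 46LCNEC_cell, 3.51 ± 0.20 in 57SCLC_cell and 2.54 ± 0.24 in 57SCLC_allo, all called by limma. Trib3 rose by 2.78 ± 0.13, 2.41 ± 0.33 and 2.55 ± 0.17 in the same 3 comparisons, all called by limma. In 46LCNEC_allo the rises of 2.17 ± 0.40 for Chac1 and 2.18 ± 0.45 for Trib3 (limma adjusted p = 0.00344 and 0.00533) kept their direction, but both calls were lost without tumor 312, tumor 319 or any 1 of the Lung samples. Neither gene was called between the lines or between culture and allograft, except that Chac1 in 57SCLC went from -0.97 ± 0.24 (adjusted p = 0.0138) to -1.2 (limma adjusted p = 0.0056) without tumor 316.

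Between the lines, 1 of the 10 genes was called lower in 57SCLC_cell than in 46LCNEC_cell, Phgdh, where 22.2% of all genes tested were lower, 23.9% higher and 46.1% called in either direction. In allografts Phgdh was lower and Asns higher in 57SCLC, 2 of 10 where 14.2% of all genes were lower, 16.1% higher and 30.4% either. From culture to allograft, 2 of 10 were lower in 46LCNEC, Phgdh and Asns, beside 8.45% of all genes lower, 14.4% higher and 22.8% either, and 9 of the 10 had a value below 0. In 57SCLC limma called 0 of 10, with 2.29% of all genes lower, 14.4% higher and 16.6% either. Of the 10, 8 had an unadjusted p under 0.05 by limma, beside 8445 of all 17078 genes tested. DESeq2 and edgeR on the recovered reads also called 0. The interaction of line and setting was called for 0 of 10 by limma, edgeR and DESeq2 alike. By limma 10.8% of all genes were called higher, 6.78% lower and 17.5% either. An unadjusted limma p under 0.05 was found for 2 of the 10, beside 8713 of all 18440 genes tested.

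**Figure D3:**
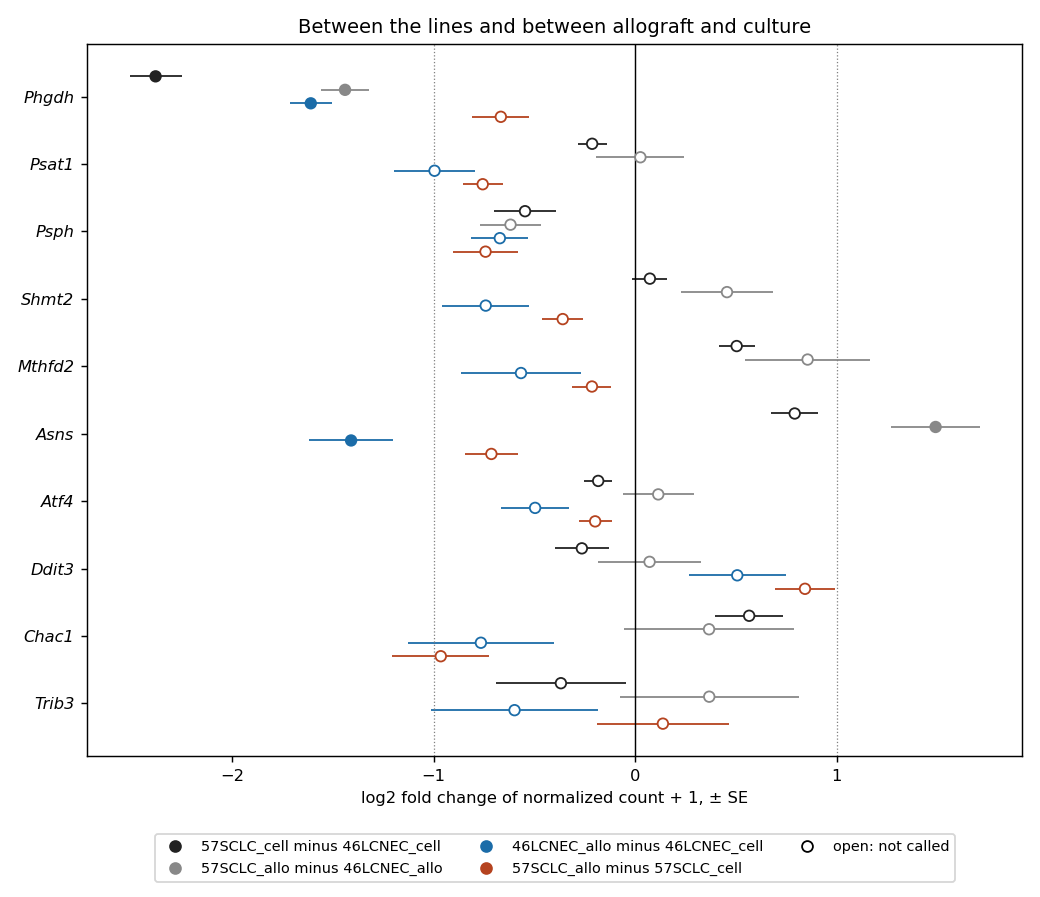
The log2 fold change ± SE of each gene between the lines (black and grey) and from culture to allograft (blue and red), with filled points for called genes. Phgdh lies at -2.38 and -1.44 between the lines, Asns at 0.79 and 1.49, and most culture-to-allograft values lie left of 0.

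The marker lists moved in these comparisons too. The 10 proliferation genes were all called higher than Lung in every tumor group, their sum being 57995 to 63228 in 46LCNEC_cell, 67785 to 74049 in 57SCLC_cell, 30527 to 41407 in 46LCNEC_allo, 48065 to 57873 in 57SCLC_allo and 2546 to 3180 in Lung. Lung differed from the tumors also in its cells, with 6 alveolar markers summing to 228920 to 307770 in Lung against at most 2527 in any tumor sample. From culture to allograft, the 4 endothelial markers went from 321 to 386 up to 5512 to 9150 in 46LCNEC, and from 35.6 to 44.8 up to 2568 to 3610 in 57SCLC. The 5 macrophage markers went from 330 to 384 up to 10475 to 13532 in 46LCNEC, and from 247 to 278 up to 3018 to 5714 in 57SCLC. The 5 fibroblast markers summed to 67855 to 78009 in 46LCNEC_cell, with Lum at or near 0, and to 297720 to 666390 in 46LCNEC_allo. In 57SCLC they went from 22.4 to 27.8 up to 30593 to 48039. Erythroid markers were at or near 0 in both cultures and at 236 to 2241 in the tumors. The part of these cells in the members' values was not tested.

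In 4 samples, several of the 10 genes lay apart from the other samples of their group in the same direction. In flask C of 57SCLC_cell, 9 of the 10 were above the mean of flasks A and B, Trib3 2.41-fold, Chac1 1.52-fold and Psph 1.46-fold, with Atf4 at 0.99-fold. In that flask 12% of all genes were at least 0.5 higher on the log2 scale, and 3 of the 10 were. In tumor 312, 6 of the 10 were at least 0.5 higher than the mean of tumors 319 and 321, namely Asns, Psat1, Shmt2, Mthfd2, Chac1 and Trib3 at 1.65-fold to 2.07-fold, beside 9.56% of all genes, while Ddit3 was at 0.70-fold. In tumor 319, 3 of the 10 were at least 0.5 higher, Ddit3 1.85-fold, Trib3 1.62-fold and Chac1 1.5-fold, beside 12.1% of all genes. For Chac1 and Trib3, tumor 319 (1034 and 1399) was close to tumor 312 (1144 and 1547). The low values of tumor 321 (415 and 480) raised the folds of both tumors for these genes. Asns, Psat1 and Shmt2 were lower in tumor 319, at 0.72-fold to 0.76-fold. In tumor 321, 4 of the 10 were at least 0.5 lower, Atf4, Mthfd2, Chac1 and Trib3, down to 0.33-fold for Trib3, beside 9.68% of all genes. These are 1 sample each against 2 and carry no test. Rn18s-rs5 took 11.5% of the reads of tumor 312 and 6.69% and 8.73% of those of tumors 319 and 321. The 5 fibroblast markers summed to 666390 in tumor 312 against 399600 and 297720, mostly Col1a1 and Col1a2, which the cultured line also expressed. Dcn and Lum were lowest in tumor 312, at 4101 and 1899. They measured 10950 and 3387 in tumor 319 and 13490 and 8259 in tumor 321. Pdgfra in tumor 312 lay between the others, at 12350 against 10870 and 16370. The 3 adipocyte markers summed to 309 in tumor 312 against 0 and 2.21. In tumor 321 the 5 T and B cell markers summed to 729 against 46.4 and 146 in tumors 312 and 319. Its alveolar markers summed to 2527 against 1192 and 689, nearly all of it Hopx, at 2384 against 1085 and 558. Its proliferation genes had the lowest sum of the group, 30527 against 37053 and 41407. The part of these in the differences was not tested.

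**Figure D4:**
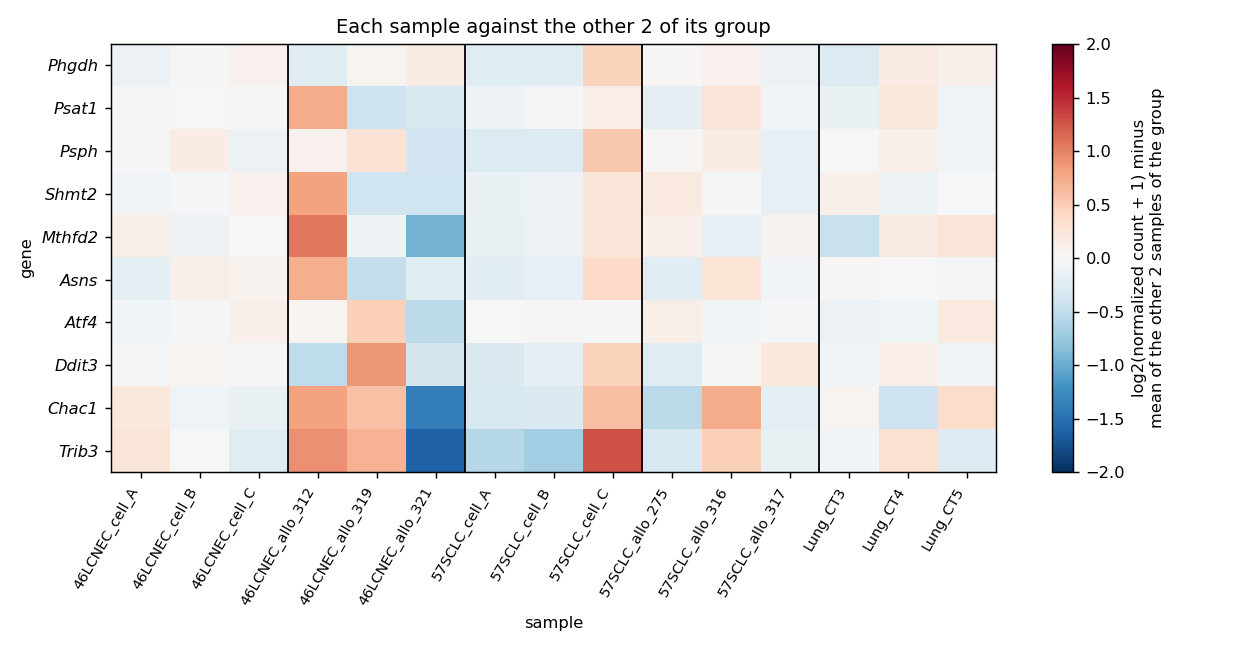
Colour gives log2(normalized count + 1) of each gene (y axis) in each sample (x axis) minus the mean of the other 2 samples of its group, with black lines between groups. The strongest colours are in 46LCNEC_allo tumors 312 and 321 and in Trib3 of 57SCLC_cell flask C.

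Among the 24 other serine, glycine and one-carbon genes, 11 of 23 tested were called higher and 3 lower in 46LCNEC_cell than in Lung, 8 and 2 of 22 in 57SCLC_cell, 6 and 2 of 23 in 46LCNEC_allo, and 8 and 2 of 22 in 57SCLC_allo. Their medians were 0.96, 0.26, 0.38 and -0.01 on the log2 scale. Over all genes tested, 20.6%, 21.1%, 13.4% and 18.9% were higher in these comparisons and 35%, 32.7%, 22.1% and 26.9% lower. The medians over all genes were -0.23, -0.12, -0.14 and -0.09. Aldh1l2, the mitochondrial formyltetrahydrofolate dehydrogenase, had a mean of 41.6 ± 9.08 (SD, n = 3) normalized counts in Lung. In the tumor groups its means were 2277 ± 349 in 46LCNEC_cell, 2458 ± 409 in 57SCLC_cell, 2847 ± 1508 in 46LCNEC_allo and 1823 ± 265 in 57SCLC_allo. Its cytosolic relative Aldh1l1 was lower than Lung in all 4 tumor groups, from 216 in Lung to 11.4 in 46LCNEC_cell, a log2 change of -4.16 ± 0.25 (limma adjusted p = 3.34e-07), with changes of -2.85 in 57SCLC_cell, -3.81 in 46LCNEC_allo and -3.02 in 57SCLC_allo, all called. Gldc, the glycine decarboxylase, measured 1093 ± 65.9 in 46LCNEC_cell and 18.2 ± 4.96 in 46LCNEC_allo, a fall of 5.86 ± 0.24 on the log2 scale (limma adjusted p = 6.67e-06), and had at most 8 reads in any sample of the other groups. Shmt1, the cytosolic counterpart of Shmt2, fell from culture to allograft in both lines, by 1.37 ± 0.11 in 46LCNEC (2318 to 901) and by 1.48 ± 0.11 in 57SCLC (3586 to 1293), with limma adjusted p of 0.000114 and 1.34e-05. Mthfd2l, a close relative of Mthfd2, was nearly absent from 57SCLC_cell, at 0 to 2 reads per flask, against 531 ± 29.0 normalized counts in 46LCNEC_cell. Cbs, which draws homocysteine and serine into cysteine synthesis, was higher in 57SCLC than in 46LCNEC by 2.92 ± 0.20 in culture and 4.21 ± 0.66 in allografts (limma adjusted p = 3.79e-06 and 0.00176), the latter without a call when tumor 275 or 316 was left out (4.16 and 4.04, limma adjusted p = 0.0109 and 0.0114).

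Of 22 other ATF4 target genes, 21 were tested, and Slc7a5 was at 0 in every sample. Slc7a5 lies within a block of 73 consecutive protein-coding genes on chromosome 8 that were all listed at 0, Rpl13 among them, so its zeros carry no level. Against Lung, 9 were called higher and 3 lower in 46LCNEC_cell, 11 and 4 in 57SCLC_cell, 8 and 1 in 46LCNEC_allo, and 9 and 3 in 57SCLC_allo. The all-gene shares there were 20.6%, 21.1%, 13.4% and 18.9% higher and 35%, 32.7%, 22.1% and 26.9% lower. The proline synthesis genes Aldh18a1 and Pycr1 were among those that rose, Aldh18a1 from 351 ± 33.3 (SD, n = 3) normalized counts in Lung to 4252 ± 162 in 46LCNEC_cell, and Pycr1 from 85.8 ± 30.7 in Lung to 1312 ± 266 in 57SCLC_cell. The cystine transporter Slc7a11 had the order of Phgdh, at 2772 ± 76.7 and 1063 ± 200.3 in cultures and allografts of 46LCNEC, 1050 ± 183 and 543 ± 108 in those of 57SCLC, and 200 ± 11 in Lung, although its 2 middle groups overlapped. From 46LCNEC culture to allograft it fell by 1.40 ± 0.14 on the log2 scale (limma adjusted p = 0.000247).

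Between the lines, 6 of the 21 tested ATF4 targets were called higher and 5 lower in 57SCLC_cell than in 46LCNEC_cell. All genes tested gave 23.9% and 22.2%. In 57SCLC_allo against 46LCNEC_allo 3 were higher and 3 lower, beside 16.1% and 14.2% of all genes. Vldlr was lower there by 3.18 ± 0.42 on the log2 scale (limma adjusted p = 0.000822). The secreted stress factors Fgf21 and Stc2 were higher in 57SCLC than in 46LCNEC in both settings. Fgf21, a hormone, was at 0 reads in all 3 Lung samples and averaged 1079 ± 660 (SD, n = 3) normalized counts in 57SCLC_cell and 1063 ± 121 in 57SCLC_allo, at least 370-fold and 364-fold higher than 3 reads per Lung library would give. It averaged 22.7 ± 3.75 in 46LCNEC_cell and 75.4 ± 61.4 in 46LCNEC_allo, and the lines differed by 5.36 ± 0.37 on the log2 scale in culture and 4.09 ± 0.52 in allografts (limma adjusted p = 4.19e-06 and 0.000714). Stc2, stanniocalcin, was 6.78 ± 0.34 and 6.38 ± 0.65 higher in 57SCLC in the same comparisons (limma adjusted p = 6.14e-07 and 0.000263). Flask C was the highest of its group for both, at 1841 for Fgf21 and 5139 for Stc2. Gdf15, another secreted factor, was lower in 57SCLC_cell than in 46LCNEC_cell, at 10.5 ± 5.37 and 186 ± 42.7 (limma adjusted p = 2.5e-05). It rose from 57SCLC culture to allograft by 3.69 ± 0.45 on the log2 scale (limma adjusted p = 0.000319), as did Cebpb by 1.43 ± 0.23 and Atf3 by 1.27 ± 0.23 (adjusted p = 0.00159 and 0.00324). Without tumor 316 or 317 only Gdf15 of these 3 was called (limma adjusted p of Cebpb = 0.0123 and 0.0126, of Atf3 = 0.02 and 0.0155). The call of Atf3 was also lost without tumor 275 or flask A and in 1 model of all 15 samples.

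Aminoacyl-tRNA synthetases, which charge tRNAs and are a further group of ATF4 targets, were mostly higher than Lung. Of 12, 11 were called higher in 46LCNEC_cell and 11 in 57SCLC_cell, 7 in 46LCNEC_allo and 10 in 57SCLC_allo, with 1 lower in each allograft comparison. Their medians were 1.96, 1.58, 1.25 and 1.32 on the log2 scale. Shares of all genes called higher were 20.6%, 21.1%, 13.4% and 18.9%, with medians of -0.23, -0.12, -0.14 and -0.09. From culture to allograft in 46LCNEC, all 12 values were between -1.18 and -0.55, and Lars, Iars and Nars were called, falling by 1.18, 1.15 and 1.07. Without tumor 321 only Lars was called, Iars and Nars being at -0.99 and -0.96. In 57SCLC none was called, with values of -0.76 to -0.10. An unadjusted limma p under 0.05 was found for 8 of the 12, beside 8445 of all 17078 genes tested.

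None of the 4 eIF2 kinases, which act upstream of ATF4, was called higher than Lung by the rule above, the highest being Eif2ak2 in 46LCNEC_cell at 0.96 ± 0.09 on the log2 scale, which did pass with TMM scaling and with edgeR or DESeq2. Of the 7 regulators of eIF2 phosphorylation, limma called 1 higher in each comparison with Lung, Eif2s1, the substrate subunit itself, by 1.90 ± 0.09, 1.27 ± 0.08, 1.33 ± 0.11 and 1.09 ± 0.09 on the log2 scale in 46LCNEC_cell, 57SCLC_cell, 46LCNEC_allo and 57SCLC_allo. The ER stress kinase Eif2ak3 (PERK) averaged 1232 ± 74.1 (SD, n = 3) normalized counts in 46LCNEC_cell, 1376 ± 14 in 57SCLC_cell, 1498 ± 434 in 46LCNEC_allo, 1272 ± 159 in 57SCLC_allo and 1253 ± 92.9 in Lung. The amino acid sensor Eif2ak4 (GCN2) was lower in 57SCLC than in 46LCNEC by 1.56 ± 0.14 in culture and 1.14 ± 0.20 in allografts, and the double-stranded RNA sensor Eif2ak2 (PKR) by 1.29 ± 0.12 and 1.19 ± 0.14. With library-size scaling the allograft differences of Eif2ak4 and Eif2ak2 were -0.88 and -0.93 and neither was called, and without tumor 312, 275 or 317 only Eif2ak2 was (limma adjusted p of Eif2ak4 = 0.0118, 0.0144 and 0.0157). Eif2ak1, the heme-regulated kinase, averaged 853 ± 86.9 in 57SCLC_cell, 868 ± 97.4 in 57SCLC_allo and 1067 ± 46.1 in Lung, beside 1301 ± 35.0 in 46LCNEC_cell and 1397 ± 67.5 in 46LCNEC_allo. Ppp1r15a (GADD34), which recruits the phosphatase that resets eIF2, averaged 2377 ± 537 in Lung and 565 ± 18.3 in 57SCLC_cell, and was called lower than Lung in 57SCLC_cell, 57SCLC_allo and 46LCNEC_allo, by 2.05 ± 0.16, 1.92 ± 0.17 and 2.13 ± 0.36 on the log2 scale. The call in 46LCNEC_allo was lost without tumor 312, CT3 or CT5 (-2.10 to -1.97, limma adjusted p = 0.0102 to 0.0133). Ppp1r15a averaged 1205 ± 102 in 46LCNEC_cell, with no call there.

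ER chaperones and degradation genes, which respond mainly through other branches of the ER stress response, were called higher than Lung mostly in 46LCNEC_cell. Of 20, 12 were called higher and 2 lower in 46LCNEC_cell than in Lung, but 2 and 4 in 57SCLC_cell, 2 and 2 in 46LCNEC_allo, and 1 and 1 in 57SCLC_allo. Among all genes tested, 20.6%, 21.1%, 13.4% and 18.9% were higher there and 35%, 32.7%, 22.1% and 26.9% lower. In direct comparison of the cultures, 9 of the 20 were lower in 57SCLC_cell and none higher, beside 22.2% and 23.9% of all genes. Hspa5 (BiP), the main chaperone of the ER lumen, averaged 55312 ± 4279 (SD, n = 3) normalized counts in the cultures and 29012 ± 5073 in the allografts of 46LCNEC, 15841 ± 645 and 16206 ± 2461 in those of 57SCLC, and 12480 ± 837 in Lung. In the comparison of the cultures it was 1.80 ± 0.10 lower on the log2 scale in 57SCLC_cell, followed by Pdia4 and Pdia6 at 1.79 ± 0.11 and 1.70 ± 0.11 (limma adjusted p = 9.54e-07, 1.57e-06 and 2.71e-06). In allografts limma called 0 of the 20 between the lines, 8 having an unadjusted p under 0.05, beside 10719 of all 17502 genes tested.

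**Figure D5:**
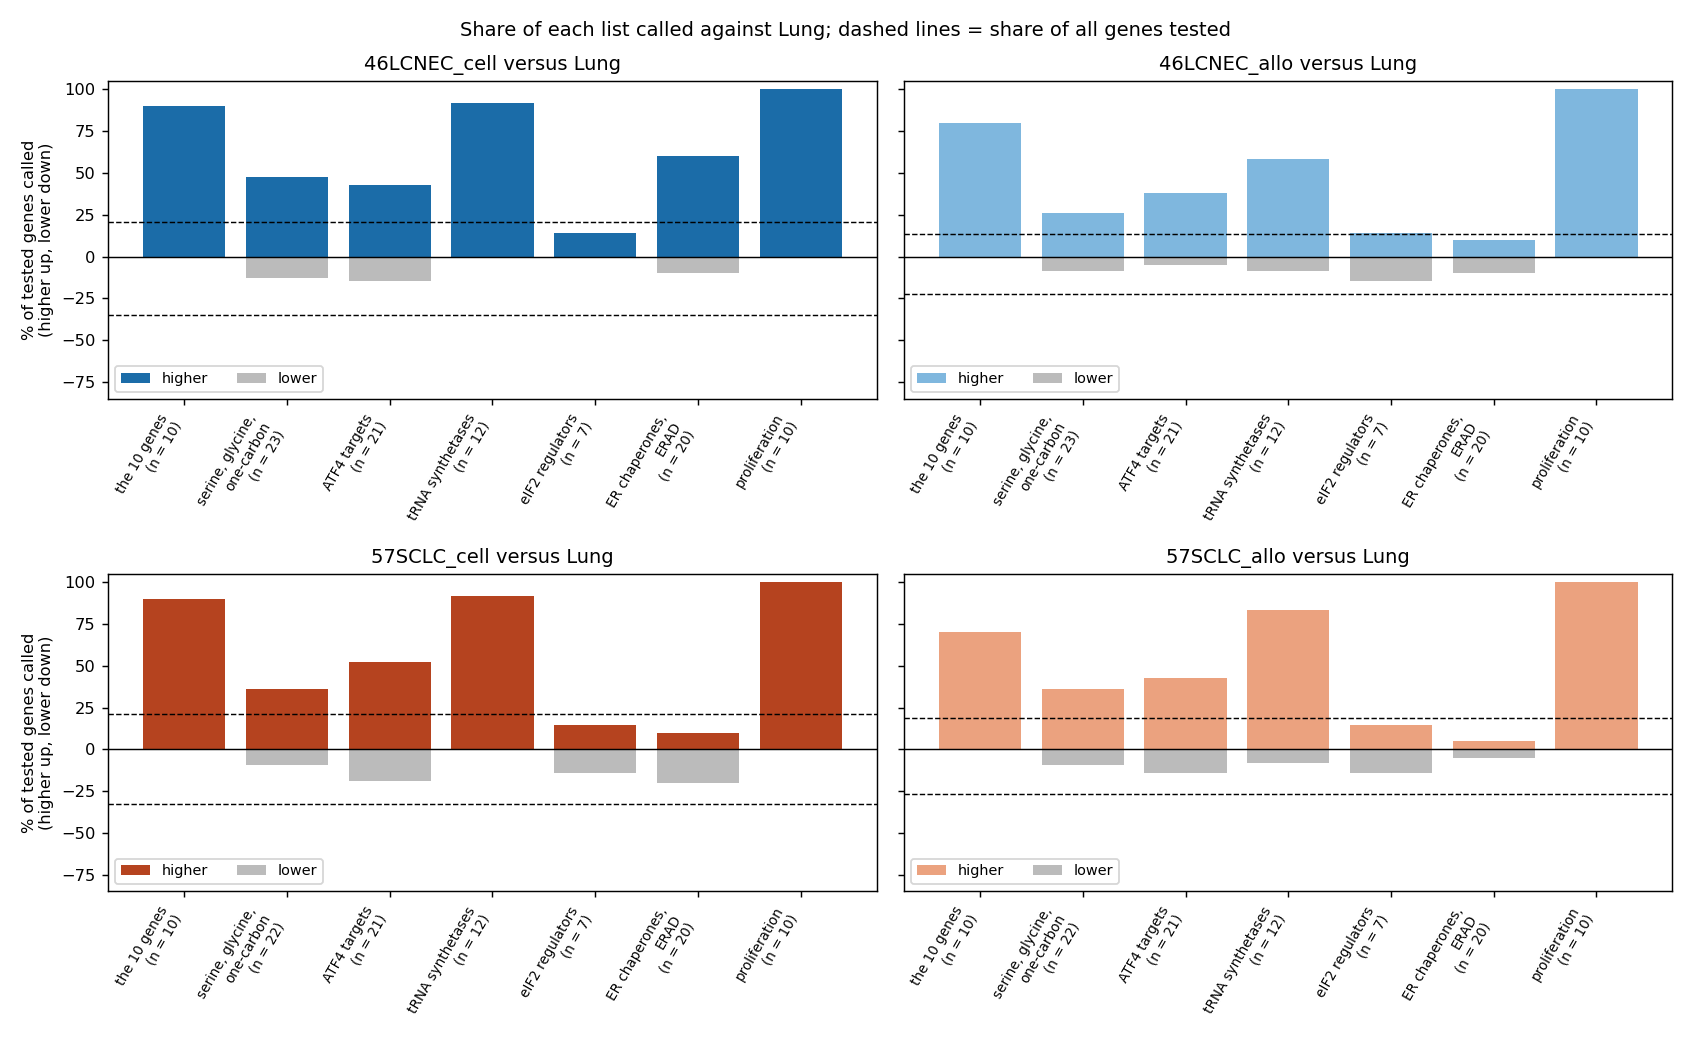
The percentage of each list's tested genes that limma called higher (bars up) or lower (bars down) than Lung, in 1 panel for each tumor group, with dashed lines at the share of all genes. The bars of the 10 genes (70% to 90%), the tRNA synthetases and proliferation stand far above the dashed lines, and those of the eIF2 regulators do not.

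The pattern of each gene was compared with those of 15571 other named genes, by the root-mean-square difference over the 5 group means of log2(normalized count + 1), each gene centred on its own mean. The nearest gene to Atf4 was Srrt at 0.015, to Shmt2 Uck2 at 0.061, to Psat1 Kif20b at 0.075, to Psph Sf3b4 at 0.093, to Ddit3 Asb3 at 0.10, to Trib3 Ddx11 at 0.10, to Mthfd2 Ncaph at 0.11, to Asns Hmgb3 at 0.15, to Chac1 Kpna2 at 0.18 and to Phgdh Pop1 at 0.22. Phgdh, which had the highest distance of the 10, was also the farthest from any other of the 10 genes, at 0.84 from Psph. Shmt2 and Trib3 were the closest to each other, at 0.20.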

How the data were processed

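RNA from 15 samples was sequenced by the authors with poly-A selection and paired-end reads, aligned to GRCm39 with Rbowtie2 and counted per gene of GENCODE M27 with featureCounts. The deposited values are a signal scale: counts divided by DESeq2 size factors. Strand and multi-mapping settings are not given in the sources used here. In all 15 columns 100% of the lower nonzero values were whole multiples of 1 read's value (tolerance 0.01 read). High values were not checked in this way. Read numbers were recovered by rounding, 9480244 to 44876572 per sample, which sets the counting error. The neuroendocrine, stromal and other lists and the 10 genes were chosen with earlier results of these data known. Named genes were all 10, plus from each list at most 3 called genes per comparison with the largest change and a mean of at least 50, the eIF2 kinases and Ppp1r15a. Exceptions named after their values were seen are the few list genes given only by level.

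Comparisons used limma 3.58.1 with a trend on log2(normalized count + 1), on genes with at least 10 in at least 3 samples of the groups compared. The fit was run on simulated counts with changes well above 2-fold and the same spread setting for every gene. That check does not cover calls near 2-fold or groups with a wide spread. The smallest group has 3 samples, and p-values measure the spread between these dishes, flasks, tumors or lungs, which for cultures may be technical. Alternatives were TMM and library-size scaling, no filter, pseudocounts of 0.1 and 5, edgeR 4.0.16 and DESeq2 1.42.0 on recovered reads, 1 model of all 15 samples, an adjusted p of 0.05, the letters as a block, and leaving out each sample, with a filter of 2 samples that was chosen after seeing the data. Gene positions are from GENCODE M39, in which 98.9% of gene identifiers were found, near-identical transcripts from blastn 2.17.0, and start-site sequences with their positions from RefSeq on GRCm38.p6, which were not converted to GRCm39. A normalized count depends on transcript length, so genes were compared only after dividing by exon length.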

Additional observations from a re-analysis of the deposited data

Results flagged for a closer look

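The difference between the lines changed with growth setting, by limma's interaction of line and setting over 12 samples (57SCLC minus 46LCNEC, allografts minus cultures, log2), in 8 genes of the related lists and in none of the 10 genes. The lists held 23 serine, glycine and one-carbon genes, 21 ATF4 targets, 12 tRNA synthetases, 7 eIF2 regulators, 20 ER genes and 10 proliferation genes tested. Over all 18440 genes tested, 17.5% were called, 10.8% higher and 6.78% lower. No list exceeded that share of 17.5%. Gldc changed by 7.09 ± 0.73 (SE, adjusted p = 1.76e-05) and Mthfd2l by 3.48 ± 0.39 (adjusted p = 3.98e-05), both with at most 3 reads per flask in 57SCLC_cell, so that these fitted values depend on the pseudocount. Gdf15 changed by 3.10 ± 0.73 (limma adjusted p = 0.00608). Cdk1 changed by 1.09 ± 0.17, Lars by 1.08 ± 0.14, Pdia4 by 1.27 ± 0.29 and Sdf2l1 by 1.08 ± 0.24 (limma adjusted p = 0.000407, 0.000141, 0.00532 and 0.00416). Jdp2 went the other way, by -1.37 ± 0.29 (limma adjusted p = 0.00348), averaging 1391 in 46LCNEC_cell and 2866 in 46LCNEC_allo but 569 in 57SCLC_cell and 439 in 57SCLC_allo. The calls of Gdf15, Pdia4, Sdf2l1 and Jdp2 were each lost when certain single samples were left out, with Gdf15 at 2.68 to 3.26, Pdia4 at 1.08 to 1.32, Sdf2l1 at 0.85 to 1.08 and Jdp2 at -1.34 to -1.26. The groups of 3 samples were not tested for a single outlying sample.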

How the results depend on the processing

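Of 1420 fold changes of the 10 genes under the alternatives, 1379 kept their direction and their side of the threshold. With 1 sample left out, the number of the 10 genes called was 6 to 8 for 46LCNEC_allo versus Lung, 9 for 46LCNEC_cell versus Lung, 8 to 9 for 57SCLC_cell versus Lung, 7 for 57SCLC_allo versus Lung, 2 to 4 for 46LCNEC_allo versus 46LCNEC_cell (4 without tumor 312), 2 to 3 between the allografts, 1 between the cultures, 0 to 1 for 57SCLC_allo versus 57SCLC_cell (Chac1, without tumor 316) and 0 to 1 for the interaction (Phgdh, without flask C). Library-size scaling gave 8 for 57SCLC_allo versus Lung, adding Atf4, and 2 between the cultures, adding Asns, and with it the medians of all genes were 0.23 and 0.28 between the lines in culture and in allografts, beside 0.00 and 0.01. Higher against lower calls over all genes were then 4741 and 3196 in place of 4043 and 3756 between the cultures, 3527 and 1969 in place of 2821 and 2491 between the allografts, and 4748 and 5581 in place of 3901 and 6032 for 57SCLC_cell versus Lung.

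Direction turned in 19 fold changes, all uncalled. With library-size scaling the differences between the cultures were 0.019 for Psat1 and 0.048 for Atf4. With 1 sample left out, the difference between the cultures ranged from -0.0097 to 0.12 for Shmt2. Between the allografts the ranges were -0.12 to 0.27 for Psat1, -0.10 to 0.37 for Ddit3, -0.097 to 0.63 for Chac1, -0.17 to 0.67 for Trib3 and -0.058 to 0.28 for Atf4. For Trib3 in 57SCLC_allo versus 57SCLC_cell it was -0.096 to 0.56, and in the interaction -0.66 to 0.069 for Chac1 and -0.20 to 0.11 for Psph. The cause was not tested. The letters of dishes and flasks share only a name: deviations of samples with the same letter correlated at 0.18, -0.19 and 0.00, and the replicate block gave 1 call among the 10 genes and 7797 over all genes, beside 1 and 7799.

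Of 852 counts for the related lists, 56 moved by over 1.5 times. The other serine, glycine and one-carbon genes called in 46LCNEC_allo versus 46LCNEC_cell were 7 in place of 4 with DESeq2, with all 15 samples in 1 model or at an adjusted p of 0.05. The eIF2 regulators called in 46LCNEC_cell versus Lung were 3 in place of 1 with TMM scaling or edgeR and 2 with DESeq2. With 1 sample left out, the counts for the interaction were 0 to 5 in place of 2 for the ER genes and 0 to 4 in place of 2 for the ATF4 targets. On the recovered reads edgeR called 2789 to 10286 and DESeq2 2970 to 10057 of all genes over the 9 comparisons, beside 2842 to 10087 with limma. Depth limited none of the 10 genes to few reads, the lowest being 142 for Phgdh in a Lung sample, whereas Gldc and Mthfd2l in 57SCLC_cell rest on at most 3 reads per flask.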
